A study of Mus musculus with 11 samples.

Results

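Synaptotagmins are vesicle membrane proteins with tandem C2 domains, and the genes described here were Syt13 and 8 relatives, Syt1, Syt4, Syt5, Syt7, Syt8, Syt9, Syt11 and Syt12. All probe sets that the platform annotation gave to these 9 genes were taken, which made 21 of the 45037 probe sets tested. Syt13 was chosen by its measured genotype difference, as the clearest gene with a higher signal in homozygous arrays, so its genotype values are a description, with no test. The relatives were taken by name, as members of the family.

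The samples were mouse kidneys of embryonic day 17, labelled Robo2 homozygous on 7 arrays and wild-type on 4, each hybridised as biotin-labelled cRNA to an Affymetrix 3′ array. Robo2 encodes a receptor for the Slit guidance proteins. By their titles they formed the groups E17R2 homozygous (n = 3, title numbers 2, 8 and 9), E17R2 wild-type (n = 3, numbers 1, 3 and 7), R2NB homozygous (n = 3, numbers 3, 4 and 5), R2E17 homozygous (n = 1, number 6) and R2E17 wild-type (n = 1, number 3). The labels do not state the Robo2 allele, the strain or the meaning of NB. They also do not say whether replicates came from separate animals, so each p-value reflects the spread among these arrays, part of which may be technical. The number of arrays limits the precision.

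The values are RMA intensities on a linear scale. The E17R2 arrays (medians of 23.4 to 24.6) and the R2NB and R2E17 arrays (medians of 47.1 to 53.4) differed in their distributions and were taken as normalized apart, which the labels do not state, so levels were compared only within each set. The Robo2 probe set, 1458229_at, read 4.08, 5.17 and 5.03 on the E17R2 homozygous arrays, against 8.75, 12.8 and 8.93 on the wild-type arrays. In the other set it read 9.72, 14.5 and 15.9 in R2NB, 10.4 in R2E17 homozygous and 15.6 in R2E17 wild-type, so R2NB arrays 4 and 5 lay near the wild-type array. It is dim on all arrays, and the labels do not say whether it reads the altered piece of the gene. Free-text and extraction labels named human brain, against the organism, source and tissue labels, which were followed. Of 8 measured brain genes, 7 had a mean signal below that of the median probe set, the exception being Mbp. The kidney epithelial cadherin Cdh16 read 1642 to 2982 in E17R2 and 7396 to 7979 in the other set, above the 90th percentile of every array.

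Most synaptotagmins tether secretory vesicles to their target membrane or help them to fuse with it. In Syt1, Syt5, Syt7 and Syt9, calcium drives the C2 domains into the membrane and onto the SNARE fusion machinery, and Syt1 is the fast calcium sensor of synapses and of chromaffin cells. Syt4, Syt8, Syt11, Syt12 and Syt13 lack residues that coordinate calcium and are thought of as trafficking proteins rather than triggers of release. In the mouse, Syt13 is known from the endocrine progenitors of the pancreas.

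Syt13 was read by a probe set of moderate signal, 1434470_at, and by a dim one, 1451045_at, and its groups stood apart by genotype on the brighter one alone. On 1434470_at the E17R2 homozygous arrays read 58.9, 57.2 and 69.5, against 32.8, 38.4 and 30.4 on the wild-type arrays. The lowest homozygous array lay well above the highest wild-type array, an order that 4.68% of all probe sets showed. The log2 means were 5.95 ± 0.15 in E17R2 homozygous and 5.08 ± 0.17 in E17R2 wild-type kidneys (SD, n = 3 each), a difference of 0.87 with a standard error of 0.13, or 1.83-fold. In the R2E17 pair Syt13 read 110.1 in the homozygous and 62.5 in the wild-type kidney, 1.76-fold apart, with no replicate. In bulk tissue, more cells of a type and more RNA per cell cannot be told apart. The homozygous array was the higher one in both title series, which is the pattern that led to the choice of Syt13.

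**Figure D1:**
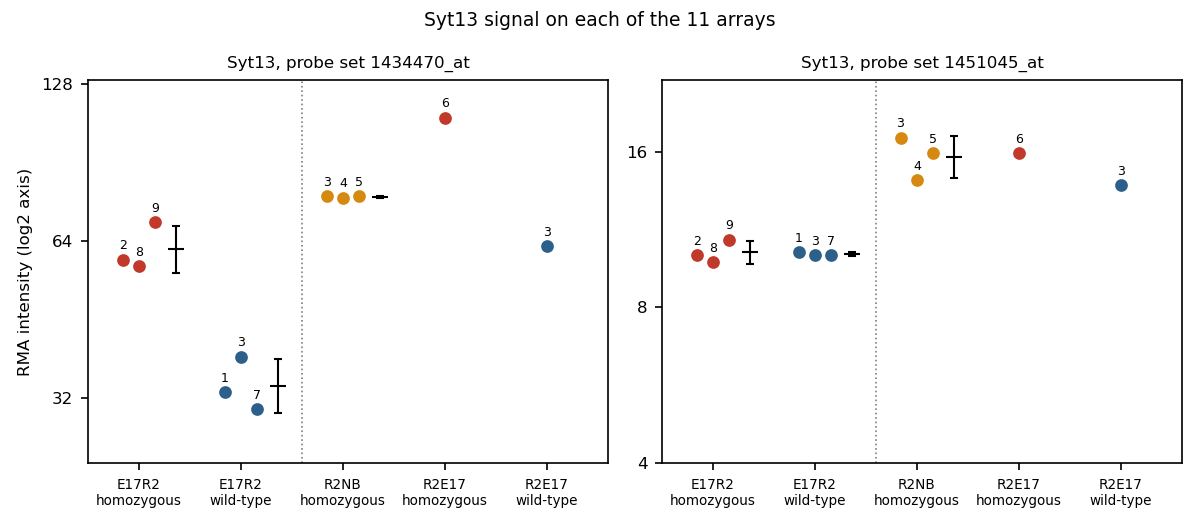
RMA intensity of the 2 Syt13 probe sets on each of the 11 arrays, on a log2 axis. Points are arrays with their title numbers, bars are the mean ± SD of groups of 3, and the dotted line parts the 2 sets that were compared apart. On 1434470_at the E17R2 homozygous arrays (57.2 to 69.5) lie above the wild-type arrays (30.4 to 38.4) and R2NB lies between the R2E17 arrays. On 1451045_at the E17R2 groups overlap.

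In the R2NB kidneys, which carry the homozygous label, 1434470_at read 77.8, 77.4 and 77.8. These values lay below the R2E17 homozygous array at 110.1, with a fold of 0.705, and above the R2E17 wild-type array at 62.5, with a fold of 1.24. Because the R2E17 homozygous array was among those that led to the choice of Syt13, no test is given for this order, which 19.9% of all probe sets shared in having every R2NB array below the R2E17 homozygous one. R2NB arrays 3 and 5 carried exactly the same Syt13 value, and the log2 SD over the R2NB group was 0.005, against 0.15 among the E17R2 homozygous arrays.

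The dim probe set 1451045_at read 10.1, 9.78 and 10.8 in E17R2 homozygous and 10.2, 10.1 and 10.1 in E17R2 wild-type kidneys. The groups overlapped, with a log2 difference of 0.01 ± 0.09 (SE), and homozygous array 2 held the same value as wild-type arrays 3 and 7. It read 17.03, 14.1 and 15.9 in R2NB, 15.9 in R2E17 homozygous and 13.8 in R2E17 wild-type kidneys. The separation by genotype on 1434470_at was therefore not seen on the other Syt13 probe set, whose mean signal lay below that of the median probe set.

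Identical values were a general feature of the set that holds R2NB and R2E17. There 10 of the 21 synaptotagmin probe sets (47.6%) had at least 1 pair of arrays with the same value, against 49.5% of all probe sets. On 1438282_at of Syt1, 1422531_at of Syt5 and 1439633_at of Syt7, 3 of the 5 arrays were equal. In E17R2 only the dim Syt13 probe set had a tie, against 5.3% of all probe sets. The part of ties in the R2NB spread of Syt13 was not tested.

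No relative had a genotype difference as large as that of Syt13 1434470_at in E17R2. Syt13 was chosen for that difference, so this order follows from the choice and is no result about the relatives. None of the 19 probe sets of the 8 relatives passed in E17R2 (limma, Benjamini-Hochberg adjusted p of 0.93 to 0.995, 2-sided), where 0 of the 45037 probe sets passed, so the background was 0%. By unadjusted p under 0.05, 1 of the 19 was higher and 0 were lower, against 2.25% higher and 2.76% lower over all probe sets. The 3 homozygous arrays lay outside the range of the wild-type arrays for 1 of the 19, a Syt7 probe set that was lower, against 5.87% of all probe sets lower and 10.6% in either direction. A count of 1 among 19 is not read as a difference from these shares. Of the 19, 9 lay above and 10 below a difference of 0. Their log2 differences ran from -0.31 to 0.39 with a median of -0.036, beside a median of -0.0041 over all probe sets. In the R2E17 pair 13 of the 19 had the same sign as in E17R2, against 40.8% of all probe sets, and 5 of the 13 belonged to Syt11 alone. Tied pairs count as not of the same sign in both figures. The 13 are not read as a difference from that share, since several probe sets share a gene and the pair is 1 array against 1.

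**Figure D2:**
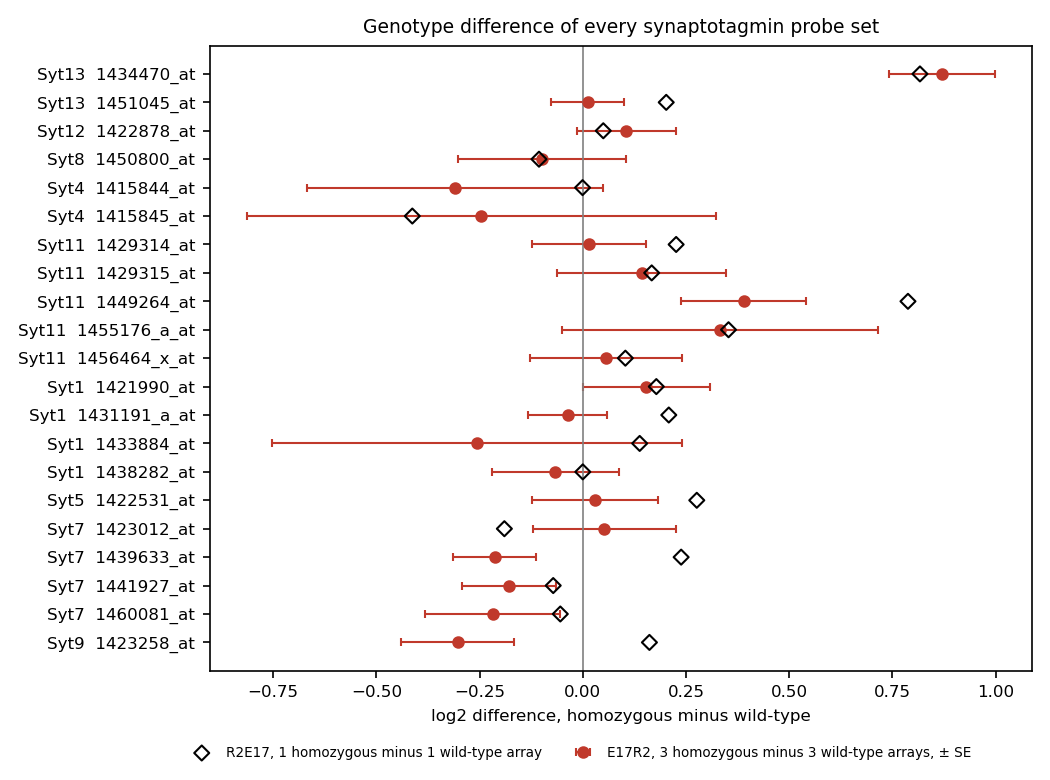
Log2 difference, homozygous minus wild-type, of all 21 probe sets. Filled circles are E17R2 (3 against 3 arrays) with their SE, and open diamonds are the R2E17 pair (1 against 1, no error). Only 1434470_at of Syt13, which was chosen by its genotype difference, lies beyond 0.5 in both. The widest E17R2 errors belong to Syt4 (0.57) and Syt1 (0.50).

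Among the relatives without calcium-coordinating residues, Syt11, a trafficking protein of neurons and macrophages, had all 5 of its probe sets above 0 in E17R2. Its dim probe set 1449264_at read 16.8, 14.9 and 19.5 in E17R2 homozygous kidneys, against 13.1, 15.1 and 10.99 in wild-type kidneys. The groups overlapped by a narrow margin at homozygous array 8 and wild-type array 3. The log2 difference was 0.39 ± 0.15 (SE, n = 3 each) with an unadjusted limma p of 0.0352, and after adjustment 0.93, which misses the threshold. In the R2E17 pair it read 28.3 in the homozygous and 16.4 in the wild-type kidney, a log2 difference of 0.79, and R2NB read 41.0, 26.98 and 44.4. The other 4 Syt11 probe sets gave E17R2 differences of 0.02 to 0.33.

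The Syt11 probe set with the highest signal, 1455176_a_at, read 103, 109 and 188 in E17R2 homozygous kidneys, against 147, 127 and 56.8 in wild-type kidneys. Its spread ran across the genotypes, with homozygous array 9 highest and wild-type array 7 lowest. The log2 difference of 0.33 ± 0.38 (SE) was smaller than its error and turned to -0.09 without wild-type array 7. In R2NB it read 245, 143 and 358, beside 198 in R2E17 homozygous and 155 in R2E17 wild-type kidneys.

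Syt4, the closest relative of Syt11 and a protein of dense-core vesicles, had the widest range among the E17R2 arrays. On 1415845_at it read 20.7, 18.9 and 55.6 in E17R2 homozygous kidneys and 62.1, 37.1 and 15.7 in wild-type kidneys, a 3.95-fold range over the 6 arrays. The high arrays were homozygous 9, wild-type 1 and wild-type 3, so both genotypes held high and low arrays. The log2 difference was -0.25 ± 0.57 (SE) and turned to 0.21 without wild-type array 1. R2NB read 28.7, 45.4 and 170.8, beside 31.5 in R2E17 homozygous and 42.0 in R2E17 wild-type kidneys, so R2NB array 5 stood apart. The second Syt4 probe set, 1415844_at, was dim and gave -0.31 ± 0.36 (SE).

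Syt12, a vesicle protein of neurons, varied little on its 1 probe set, with 28.0, 27.1 and 26.8 in E17R2 homozygous kidneys and 29.6, 22.7 and 24.3 in wild-type kidneys. Its log2 difference was 0.10 ± 0.12 (SE) in E17R2 and 0.05 in the R2E17 pair. R2NB read 54.1, 50.2 and 53.2, beside 50.2 in R2E17 homozygous and 48.5 in R2E17 wild-type kidneys, a narrow range as in E17R2. Syt8 read 29.0, 32.7 and 44.9 in E17R2 homozygous and 36.9, 30.7 and 46.0 in wild-type kidneys. The Syt8 groups overlapped over nearly their whole range, with a log2 difference of -0.10 ± 0.20 (SE) and -0.11 in the pair.

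Among the calcium-binding relatives, Syt1 had the widest spread. On 1433884_at it read 46.4, 50.1 and 114 in E17R2 homozygous kidneys and 131, 89.1 and 38.6 in wild-type kidneys, a 3.40-fold range. As for Syt4, the high arrays were homozygous 9, wild-type 1 and wild-type 3. The log2 difference was -0.26 ± 0.50 (SE) and turned to 0.13 without wild-type array 1. In the R2E17 pair it read 50.8 in the homozygous and 46.2 in the wild-type kidney, and R2NB read 56.9, 55.8 and 370.4, with array 5 again apart. The other 3 Syt1 probe sets were dim, with E17R2 differences of -0.07 to 0.15.

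Syt7, a high-affinity calcium sensor of lysosomes and dense-core vesicles, had 3 of its 4 probe sets below 0 in E17R2. On 1439633_at the homozygous kidneys read 44.2, 40.1 and 38.5 and the wild-type kidneys 44.2, 49.2 and 48.7. The groups were separated only in the next digit, by 44.19 in homozygous array 2 and 44.24 in wild-type array 1. The log2 difference was -0.21 ± 0.10 (SE, limma adjusted p = 0.93), whereas the R2E17 pair read 67.0 in the homozygous and 56.8 in the wild-type kidney, a log2 difference of 0.24. R2NB read 67.0, 67.0 and 85.2, so 3 of the 5 arrays shared the homozygous value. The brightest Syt7 probe set, 1460081_at, read 119, 100.2 and 78.2 in homozygous and 123, 117 and 103 in wild-type kidneys, with a log2 difference of -0.22 ± 0.16 (SE), and the groups overlapped. Without homozygous array 9 that difference was -0.06. The other Syt7 probe sets gave -0.18 ± 0.11 (1441927_at) and 0.05 ± 0.17 (1423012_at, dim).

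Syt9, a calcium sensor of dense-core vesicles in the rat adrenal line PC12, read 48.1, 47.0 and 42.0 in E17R2 homozygous and 66.0, 56.9 and 47.6 in wild-type kidneys. Homozygous array 2 and wild-type array 7 overlapped, and the log2 difference was -0.30 ± 0.14 (SE, limma adjusted p = 0.93), against 0.16 in the R2E17 pair. Without wild-type array 1 the E17R2 difference was -0.19. R2NB read 110.0, 93.2 and 124, beside 103 in R2E17 homozygous and 92.1 in R2E17 wild-type kidneys. Syt5, found on dense-core and other vesicles, read 25.2, 33.8 and 31.9 in homozygous and 26.7, 27.7 and 34.5 in wild-type kidneys. Its log2 difference was 0.03 ± 0.15 (SE) in E17R2 and 0.28 in the R2E17 pair. R2NB read 67.8, 65.8 and 65.8, beside 65.8 in R2E17 homozygous and 54.4 in R2E17 wild-type kidneys, and the 3 values of 65.8 were identical.

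Between the R2NB and R2E17 homozygous arrays no relative of Syt13 passed the test across all probe sets. In limma 0 of the 45037 probe sets passed an adjusted p of 0.05, a background of 0%, and 3469 had an unadjusted p under 0.05. The smallest adjusted p among the 19 probe sets of the relatives was 0.679, at Syt8. Syt8 read 73.8, 67.6 and 64.3 in R2NB, 54.6 in R2E17 homozygous and 58.7 in R2E17 wild-type kidneys. Its log2 difference from the R2E17 homozygous array was 0.33 ± 0.10 (SE). This fit rests on the R2NB spread alone, since R2E17 homozygous was 1 array. The relatives ran from -0.05 to 1.05, the highest being 1433884_at of Syt1 at 1.05 ± 1.56 (SE), where R2NB array 5 alone was high.

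The spread of the brightest probe sets of Syt1, Syt4 and Syt11 across arrays ran beside that of some neuronal markers. The markers named here were chosen after their values had been seen. Tubb3, a neuronal tubulin, read 37.9, 18.0 and 127 in E17R2 homozygous and 134, 64.9 and 13.1 in wild-type kidneys, so homozygous 9, wild-type 1 and wild-type 3 were its high arrays too. Snap25, the SNARE protein on which Syt1 acts, read 14.4, 8.76 and 83.6 in homozygous and 65.1, 48.0 and 7.60 in wild-type kidneys. Dimmer probe sets of these genes did not all have the same high arrays, with log2 deviations from the E17R2 mean of -0.31 on wild-type array 3 for Syt1 1438282_at, -0.02 on homozygous array 9 for Syt4 1415844_at and -0.18 on wild-type array 1 for Syt11 1449264_at. Chromogranin A, Chga, a vesicle protein of chromaffin cells, which secrete catecholamines in the adrenal medulla, read 25.6, 17.6 and 38.8 in homozygous and 315, 279 and 26.5 in wild-type kidneys, so homozygous array 9 was not among its high arrays. In R2NB, array 5 held the high values of Tubb3 (10.4, 10.4 and 193) and Snap25 (5.36, 11.7 and 150.7) as of Syt1, Syt4 and Syt11. Not every listed gene followed. Slc18a1 read 97.8, 88.9 and 73.3 in E17R2 homozygous and 130, 117 and 139 in wild-type kidneys. Elavl4 had the same high arrays in E17R2, but read 105, 65.5 and 112 in R2NB, beside 107 in R2E17 homozygous. The SNARE gene Stx1a had only a 1.25-fold range in E17R2.

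Among the R2NB arrays, array 4 showed a different set of markers. It had high signals of the adrenal cortex enzymes Hsd3b1 (26.7, 4764 and 26.7 on R2NB arrays 3, 4 and 5) and Cyp11b1 (9.15, 1205 and 9.15), and of Chga (33.7, 665 and 656). On that array Syt1 stood at 55.8, beside 56.9 on array 3, and Syt4 at 45.4, beside 28.7. High Chga thus came with high Syt1 on array 5 and without it on array 4. The adrenal cortex signal was not limited to R2NB. In E17R2, Hsd3b1 read 477, 27.3 and 12.2 in homozygous and 1526, 1330 and 43.5 in wild-type kidneys. Cyp11b1 was highest there on wild-type arrays 1 and 3, at 934 and 695. Both wild-type arrays were also high for Syt1, Syt4 and Tubb3. Homozygous array 9, high for the same 3 genes, had the lowest Hsd3b1 value in E17R2.

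Over the whole list of 18 chromaffin and sympathetic genes, 17 were measured, 4 lay above and 13 below a difference of 0 in E17R2, and 0 passed in limma. The log2 of the list's summed signal was 9.55 to 11.04 in E17R2 homozygous and 9.68 to 11.84 in E17R2 wild-type kidneys, and 10.40 to 13.19 in R2NB. Of 10 adrenal cortex genes 9 were measured, all 9 below 0 and 0 passing, with log2 sums of 8.42 to 10.35 in E17R2 homozygous and 8.75 to 11.92 in wild-type kidneys. No marker was at 0, since every deposited value was above 0. In the list of 8 smooth muscle genes, homozygous array 9 stood apart, with a log2 sum of 15.06 beside 11.82 and 12.02 on the other homozygous arrays and 12.14 to 12.27 in wild-type. The part of these cell types in the values of Syt1, Syt4 and Syt11 was not tested.

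On the same arrays Syt13 1434470_at did not overlap between the E17R2 groups, whereas Tubb3 did. Syt13 was chosen for that separation, and Tubb3 was named after its values had been seen. The contrast was therefore fixed by the choice of genes. Homozygous array 9 was the highest of its group for both genes. Wild-type arrays 1 and 3, high for Tubb3, read 32.8 and 38.4, and wild-type array 7, low for Tubb3, read 30.4. R2NB array 5, highest for Tubb3, read the same 77.8 as R2NB array 3. Homozygous array 9, which held the highest Syt13 value, also had the lowest summed signal of 10 kidney genes, at a log2 sum of 11.74, against 12.41 and 12.45 on the other homozygous arrays and 12.57 to 12.64 in wild-type. Without array 9 alone the Syt13 difference was 0.78. All 10 kidney genes lay below 0 in E17R2, with a median of -0.558 and 0 passing in limma. For 6 of the 10 the homozygous arrays all lay below the wild-type arrays. Over all genes 12.3% were apart in either direction, and over all probe sets 5.87% were lower in that way. In the R2E17 pair 5 of the 10 had the same sign. Apart in E17R2 and of the same sign in the pair were Pax8 (-0.48 and -0.32), Nphs1 (-0.80 and -0.09) and Umod (-0.88 and -1.01). Over all genes, 2.58% were lower in both in that way. The part of the kidney genes in the Syt13 value was not tested.

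**Figure D3:**
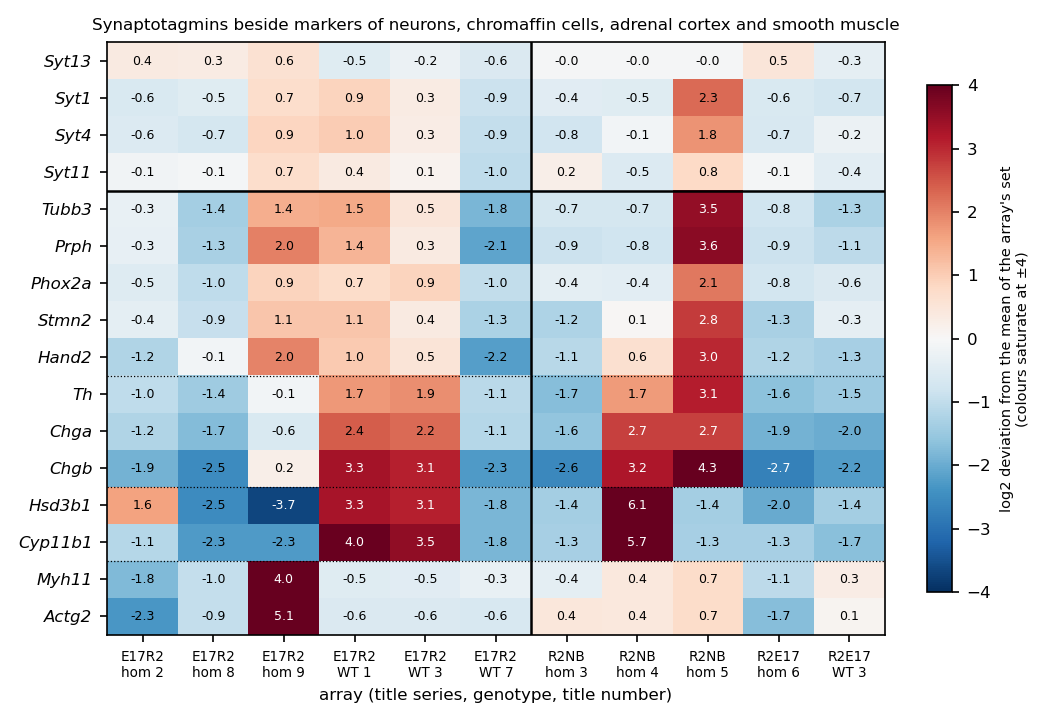
Log2 deviation of each gene from its mean over the arrays of its set, with the E17R2 homozygous and wild-type arrays left of the thick line and R2NB and R2E17 to its right. Synaptotagmins, each by its brightest probe set, stand above the thick horizontal line, then markers of neurons, chromaffin cells, adrenal cortex and smooth muscle. On the probe sets shown, Syt1, Syt4 and Syt11 share their high arrays with Tubb3 and Prph. Syt13 is above its mean on the 3 E17R2 homozygous arrays, the pattern it was chosen for.

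The promoters of Syt1 and Syt11, synaptotagmins that were high on the same arrays, are shown as the 250 bases before a RefSeq start on build GRCm38.p6. The promoter table held entries for 4 of the 9 genes, and 2 for Syt1. The other Syt1 entry, at chr10:109009112-109009361 on the minus strand, held none of the motifs searched and is not printed. Both stretches lie on the minus strand, Syt1 at chr10:109010976-109011225 and Syt11 at chr3:88772600-88772849, and are written 5′ to 3′. Capitals mark the GC box (GGGCGG or CCGCCC) and the CCAAT box (CCAAT or ATTGG), searched on both strands and with no overlap between the motifs.
Syt1: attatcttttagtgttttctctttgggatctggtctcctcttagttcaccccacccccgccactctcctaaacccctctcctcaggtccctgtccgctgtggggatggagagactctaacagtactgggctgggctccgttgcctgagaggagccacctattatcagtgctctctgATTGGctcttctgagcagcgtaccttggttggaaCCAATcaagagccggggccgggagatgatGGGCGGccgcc
Syt11: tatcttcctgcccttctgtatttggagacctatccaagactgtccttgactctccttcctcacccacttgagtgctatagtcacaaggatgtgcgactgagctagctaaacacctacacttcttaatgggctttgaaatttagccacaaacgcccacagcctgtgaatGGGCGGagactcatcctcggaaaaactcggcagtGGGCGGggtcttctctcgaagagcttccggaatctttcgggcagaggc
The Syt1 stretch held 1 GC box and 2 CCAAT boxes, and the Syt11 stretch 2 GC boxes and no CCAAT box. Neither held the TATA box letters (TATAAA or TTTATA). Over 32851 promoters of the same length, 32.7% held a GC box, 33.8% a CCAAT box and 12.4% a TATA box. A match here describes letters, not a binding site.

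Beyond the 9 genes, 7 of 8 other listed synaptotagmins were measured, with 13 probe sets, of which 0 passed in limma. Both probe sets of Syt17, a C2 protein without the usual membrane anchor of the family, lay lower in all 3 E17R2 homozygous arrays. These were 2 of the 13, against 5.87% of all probe sets lower in that way. They share a gene and are not read as a difference from that share. The brighter one, 1433909_at, read 83.9, 78.9 and 106 in homozygous and 139, 126 and 111 in wild-type kidneys, a log2 difference of -0.49 ± 0.14 (SE), with a limma adjusted p of 0.93. The R2E17 pair gave 0.13 on this probe set and 0.54 on the other, 1422955_at, the opposite sign on both.

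Synaptotagmins act on the SNARE fusion machinery. Of 28 measured SNARE and fusion genes, 10 lay above and 18 below 0, with 0 passing in limma and a median of -0.047, beside -0.009 over all genes. Of 12 measured genes with C2 domains of the Sytl, Esyt, Doc2 and Rim families and rabphilin (Rph3a), 8 lay above and 4 below 0, with 0 passing and a median of 0.076. Rims2, a scaffold of release sites, was lower in all 3 E17R2 homozygous arrays (-0.51 ± 0.21, SE, limma adjusted p = 0.93) and in the R2E17 pair (-0.38). At the level of genes, 2.58% of all genes were lower in that way in both.

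To find which genes had a profile like that of Syt13, each profile over the 6 E17R2 arrays was centred and its root mean square difference from Syt13 1434470_at was taken. Among 34943 other probe sets with 1 gene symbol, the closest member was 1449264_at of Syt11, at rank 109 with a distance of 0.248 on the log2 scale. The next was 1421990_at of Syt1 at rank 2648 with 0.381. The other Syt11 probe sets ran from rank 5357 (0.413) to rank 20209 (0.497), the latter being its brightest, 1455176_a_at. The brightest probe sets of Syt1 (0.809) and Syt4 (0.879) were at ranks 34276 and 34495, near the far end. The closest genes of all were Matn2 (0.082), a matrix protein, the collagen gene Col9a2 (0.126), the potassium channel Kcnh1 (0.132), the matrix protease Adamts6 (0.134) and the zinc finger gene Bnc2 (0.141). Since the rank was taken on arrays that set Syt13 apart by genotype, each of these 5 was higher in E17R2 homozygous arrays by construction, by 0.63 to 0.78 on the log2 scale. In the R2E17 pair, which the rank did not use, Kcnh1 gave 0.33 and the other 4 gave -0.45 to -0.06, beside 0.82 for Syt13. The R2E17 homozygous value of Kcnh1 (53.4) was shared exactly by R2NB arrays 3 and 4, and that of Bnc2 (337.8) by every R2NB array.

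**Figure D4:**
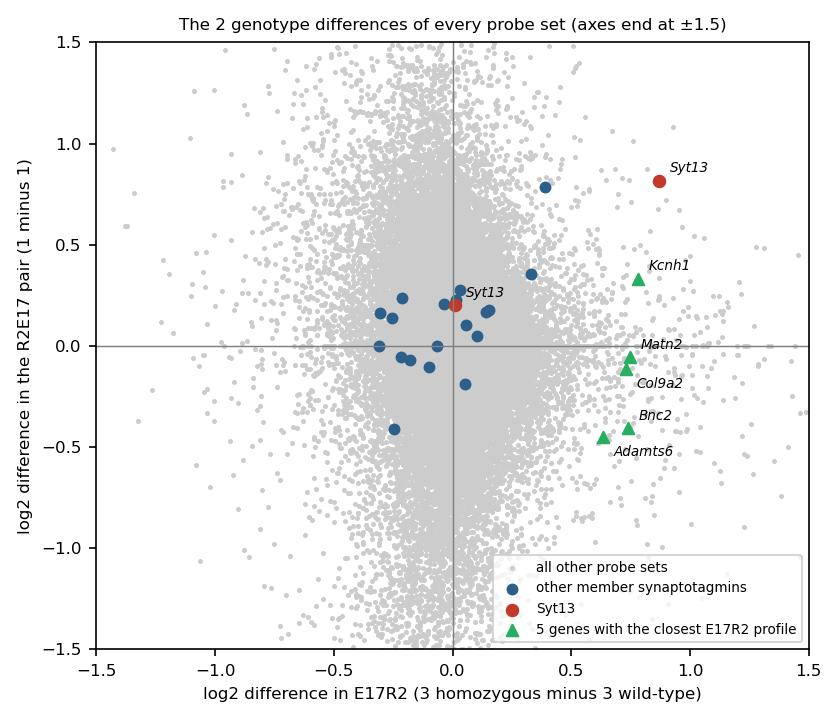
Log2 difference, homozygous minus wild-type, in E17R2 (horizontal, 3 against 3 arrays) and in the R2E17 pair (vertical, 1 against 1) for every probe set within ±1.5. Red circles are the 2 Syt13 probe sets, blue circles the 19 probe sets of its relatives, and green triangles the 5 genes whose E17R2 profile was closest to Syt13. Syt13 1434470_at lies at 0.87 and 0.82; of the 5 closest genes Kcnh1 alone is above 0 on the vertical axis.

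Syt13 lies on chromosome 2 and Robo2 on chromosome 16. In the RefSeq order along chromosome 2, the 5 measured genes before it were Chst1, Slc35c1, Cry2, Mapk8ip1 and 1700029I15Rik, and the 5 after it Prdm11, Trp53i11, Tspan18, Cd82 and Gm10804. Their E17R2 log2 differences ran from -0.12 to 0.13, and in 0 of the 10 were the groups apart, against 12.3% of all genes. A count of 0 among 10 is not read as a difference from that share.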

How the data were processed

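Expression was measured in 11 kidney samples, 1 array each. RMA is the only tool named in the submitters' processing notes, with no version, and the authors deposited its output as intensity on a linear scale. Of 45101 probe sets, 64 controls were set aside. Names came from the platform annotation, updated to RefSeq symbols of GRCm38.p6. In all, 34945 had 1 symbol, 932 several and 9160 none here. A gene is its brightest probe set, which gave 18193 genes.

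Deposited intensities were log2-transformed without a pseudocount, and dim probe sets were kept. limma 3.58.1 in R 4.3.3 (lmFit, eBayes, 2-sided, Benjamini-Hochberg over all 45037 probe sets, threshold 0.05) was fitted to the 6 E17R2 arrays, and apart to the 5 R2NB and R2E17 arrays with a mean per group. It was tested on simulated data. Alternatives were arrays centred or quantile normalized again, 16 added before the log, trend and robust settings, dim probe sets left out, 1 probe set a gene, joint fits, and each array left out.

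The members, gene lists and tests were chosen with earlier results of these data known. Named were all member probe sets, the 5 closest profiles, 5 neighbours on either side, and Robo2. Up to 3 genes of the highest mean from lists of other tissues were allowed. List genes apart in E17R2 and of the same sign in the pair were Rims2, Pax8, Nphs1 and Umod, all lower, and Neurog3, higher. Neurog3, of the pancreas and gut endocrine list, was dim. Its log2 difference was 0.24 ± 0.11 (SE, limma adjusted p = 0.93) in E17R2 and 0.29 in the pair. Of the 9 genes measured in that list, 4 lay above and 5 below 0 in E17R2. The groups were apart for 1 of the 9, against 12.3% of all genes, which is not read as a difference from that share. Other genes, such as Cdh16, Mbp and Snap25, were chosen after their values were seen. Promoters are RefSeq's.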

Additional observations from a re-analysis of the deposited data

Results flagged for a closer look

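Syt7 1439633_at differed in direction between the title series. In E17R2 the 3 homozygous arrays (38.5 to 44.19) all lay below the 3 wild-type arrays (44.24 to 49.2), with a log2 difference of -0.21. The R2E17 pair read 67.0 in the homozygous and 56.8 in the wild-type kidney, a log2 difference of 0.24. The difference between the 2 contrasts, tested in limma as an interaction added after the data had been seen, was -0.45 ± 0.23 (SE, adjusted p = 0.493) and did not pass. The R2E17 homozygous value was shared exactly by R2NB arrays 3 and 4.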

How the results depend on the processing

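No paired analysis was possible because the compared groups share fewer than 2 title numbers. The E17R2 count of called probe sets was 0 with all 6 arrays and under every alternative but one, which left out wild-type array 7 and gave 3, all lower, so arrays left out in turn gave 0 to 3. The R2NB count was 0, and 8 with each array centred on its median. The Syt13 1434470_at difference ran from 0.64 with 16 added before the log to 0.96 without wild-type array 3. The R2E17 pair gave 0.68 to 0.91. Its sign was kept throughout, but Syt13 was chosen for groups that do not overlap. Leaving out an array or adding 16 could therefore not turn the sign, and its being kept is no support. Of 296 alternative values over the 21 probe sets, 35 changed sign, in 14 probe sets, and 261 kept it. With arrays left out in turn, differences ran from -0.0946 to 0.0067 (1431191_a_at), -0.75 to 0.13 (1433884_at) and -0.24 to 0.0221 (1438282_at) for Syt1, -0.67 to 0.12 (1415844_at) and -0.78 to 0.21 (1415845_at) for Syt4, -0.0549 to 0.16 for Syt5, -0.0678 to 0.25 for Syt7 1423012_at, -0.28 to 0.0523 for Syt8, and -0.0292 to 0.0437 for Syt13 1451045_at. With no change of sign, they ran from -0.42 to -0.19 for Syt9, from -0.36 to -0.0571 for Syt7 1460081_at, from -0.26 to -0.0956 for Syt7 1441927_at and from 0.02 to 0.22 for Syt12. For Syt11 they ran from -0.10 to 0.0887 (1429314_at), -0.0598 to 0.29 (1429315_at), -0.092 to 0.60 (1455176_a_at) and -0.10 to 0.19 (1456464_x_at). The joint fits of 8 and of 11 arrays gave 0.0248 for Syt1 1431191_a_at and -0.0087 for Syt7 1423012_at, and quantile normalization gave -0.0184 for Syt13 1451045_at. Leaving out homozygous array 9 and wild-type arrays 1 and 3, chosen after seeing the data, left 2 homozygous arrays against wild-type array 7 alone, which is assumed to vary like the others. There the sign turned for Syt1 1433884_at (0.32), Syt13 1451045_at (-0.0225), Syt4 1415844_at (0.34) and 1415845_at (0.33), Syt5 (-0.24), and Syt7 1423012_at (-0.40) and 1460081_at (0.0906), and the Syt9 difference was -0.0018. The cause was not tested, beyond the smaller number of arrays. Dim probe sets limit what can be read of Syt1, Syt4, Syt7 and Syt13 on their weaker probe sets.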
